A study of Mus musculus with 12 samples.

Results

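The genes described here are 9 genes of sarcoplasmic reticulum calcium cycling, Ryr2, Trdn, Asph, Casq2, Hrc, Jph2, Atp2a2, Pln and Slc8a1, chosen by name among the 22915 genes of a bulk RNA-seq table. The study treated primary cardiomyocytes from adult male C57/Bl6 mice, 12 weeks of age, and kept them under normoxia for 24 h. The 4 conditions were the solvent PBS, murine leukemia inhibitory factor (mLIF), which signals through the LIF receptor (LIFR), murine oncostatin M (mOSM), which signals through the OSM receptor (OSMR), and hlOSM, a murine OSM that carries the AB loop of human OSM and signals through both receptors. Each cytokine was given at 25 ng/mL by the sample descriptions (the methods of the study state a lower figure), with 3 libraries in every condition. No genotype differed between the groups, and the comparison asks how selective and combined receptor activation act on the transcripts of cultured heart muscle cells. The methods of the study speak of biological replicates but do not say whether the 3 libraries of a condition came from separate hearts, so the p-values measure the spread between these libraries, which may be technical.

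A heart muscle cell contracts when calcium leaves the sarcoplasmic reticulum and relaxes when calcium is returned to it. An electrical impulse opens calcium channels of the T-tubules, the entering calcium opens the ryanodine receptor RyR2 across a narrow cleft, the dyad, and calcium held by calsequestrin flows out of the store. The pump SERCA2a then returns most of this calcium under the brake of phospholamban, and the sodium-calcium exchanger NCX1 expels the rest. The 9 genes were ordered by these roles, from release (Ryr2, Trdn, Asph) and the dyad (Jph2) over storage (Casq2, Hrc) to uptake (Atp2a2, Pln) and extrusion (Slc8a1).

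RefSeq promoters of the mouse build GRCm38.p6 were matched for 6 of the 9 genes (Jph2, Casq2, Hrc, Pln, Ryr2 and Slc8a1), and 4 are shown because the results below turn on these genes: Pln and Jph2 for their large change with both OSM ligands, Hrc for its change with mLIF, and Casq2 for a MEF2 motif. Each run gives 180 bases upstream of the start on the gene's own strand, 5′ to 3′, and capitals mark the motif matches inside it. The runs of Jph2, Hrc and Casq2 cover positions -180 to -1 before the start, and that of Pln positions -199 to -20.
Pln, chr10:53337487-53337666, plus strand: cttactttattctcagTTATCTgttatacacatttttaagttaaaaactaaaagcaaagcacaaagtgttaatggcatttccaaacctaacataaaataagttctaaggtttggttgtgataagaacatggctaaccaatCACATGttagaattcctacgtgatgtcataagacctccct
Jph2, chr2:163397994-163398173, minus strand: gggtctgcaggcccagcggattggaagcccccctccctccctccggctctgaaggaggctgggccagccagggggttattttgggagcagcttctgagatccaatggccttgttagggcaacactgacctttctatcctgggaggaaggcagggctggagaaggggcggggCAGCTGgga
Hrc, chr7:45335089-45335268, plus strand: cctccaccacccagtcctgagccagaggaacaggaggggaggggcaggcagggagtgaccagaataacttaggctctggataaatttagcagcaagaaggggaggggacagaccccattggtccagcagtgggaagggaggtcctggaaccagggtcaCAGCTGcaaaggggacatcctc
Casq2, chr3:102086235-102086414, plus strand: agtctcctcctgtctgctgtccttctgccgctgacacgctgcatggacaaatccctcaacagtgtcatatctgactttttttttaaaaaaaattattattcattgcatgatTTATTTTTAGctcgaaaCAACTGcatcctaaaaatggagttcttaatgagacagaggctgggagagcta
Over the 250 bases before each start, on both strands, none of the 6 promoters held the STAT motif TTCNNNGAA, which 7.02% of all 32851 promoters held. A MEF2 motif stood in the Casq2 promoter, against 2.92% of all promoters, and a GATA motif (AGATAA) in those of Pln and Slc8a1, against 9.99%. The Pln promoter also held a TATA box motif (TATAAA, 12.4% of all promoters), upstream of the stretch shown. All 6 promoters held an E-box (CANNTG), as did 66.2% of all promoters, and none held the M-CAT motif CATTCC (12.6%) or a CArG box (1.47%). These matches describe letters in a window and say nothing of factor binding.

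The deposited values were normalized counts rounded to whole numbers, with library totals between 2745748 and 2911891, so the original depth is unknown. The 9 genes together took 0.599% to 0.628% of each PBS library, 0.526% to 0.585% with mLIF and 0.490% to 0.526% with mOSM or hlOSM. The cardiomyocyte label was checked against 8 markers (Myh6, Tnnt2, Tnni3, Actc1, Ttn, Myl2, Actn2, Tnnc1), whose summed normalized count was 42368 to 43754 in the PBS libraries, while that of no other cell type list (fibroblast, endothelial, leukocyte, smooth muscle or pericyte, skeletal muscle) exceeded 2141. In the treated libraries these 8 markers summed to 36445 to 38062 with mLIF, 29247 to 33020 with mOSM and 30259 to 32405 with hlOSM. These sums are not corrected for length and rest mostly on Ttn, with 116.8 kb of merged exons. Ttn had a mean of 32924 in PBS, where the sum had a mean of 42854, and Myh6, the next highest marker, 3765. With mLIF, mOSM and hlOSM the Ttn mean was 28727, 22907 and 23564.

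By normalized count, which is not corrected for length, Ryr2 and Atp2a2 were at ranks 4 and 15 of the table in PBS, and Jph2, the lowest of the 9, was at rank 1491. Levels can be set against each other only per length. Per kilobase of the merged exons, the PBS level was 591 ± 41.6 (SD, n = 3) for Pln and 591 ± 20.4 for Atp2a2, 384 ± 16.8 for Hrc, 208 ± 7.85 for Ryr2, 200 ± 17.7 for Casq2, 189 ± 2.97 for Trdn, 115 ± 3.91 for Jph2, 82.7 ± 4.6 for Slc8a1 and 62.7 ± 2.73 for Asph. The inhibitor and its pump had overlapping per-kilobase levels at the top of this order, and Casq2 overlapped both Ryr2 and Trdn, while the other neighbours were apart in all libraries. The order depended on the length used. Divided by the longest coding transcript instead, Atp2a2 stood at 801 ± 27.7 per kilobase and Pln at 699 ± 49.2, and Trdn (392 ± 6.14) passed Ryr2 (356 ± 13.4).

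With mOSM, 8 of the 9 genes were lower than in PBS, and with hlOSM the same 8 genes were lower, Atp2a2 being the exception both times, whereas mLIF lowered 4 (Ryr2, Trdn, Hrc and Pln), all by limma on log2(normalized count + 1) with Benjamini-Hochberg adjusted p under 0.05 and all on the deposited scale, since relative to the cardiomyocyte markers only 1, 2 and 0 genes were lower with mOSM, hlOSM and mLIF and Atp2a2 was higher with all of them. Over all 13184 genes tested, 15.8% were lower with mOSM, 19.8% with hlOSM and 4.44% with mLIF on the deposited scale. Relative to the markers, 533, 723 and 87 of them were lower with mOSM, hlOSM and mLIF. Higher on that scale were 6926, 7290 and 4024. The 8 markers are sarcomere genes, and on the deposited scale 7, 7 and 5 of them were lower with mOSM, hlOSM and mLIF. Scaling to them thus also removes a decrease that the 9 genes share with them. None of the 9 was higher than PBS on the deposited scale. Their median log2 fold change was -0.32 with mOSM, -0.42 with hlOSM and -0.16 with mLIF, where the median over all genes was -0.0043, -0.0052 and 0.00037. The changes were small in size, and none of the 9 lay below the 5th percentile of all genes with mOSM (-0.72) or hlOSM (-0.81). The libraries did not overlap with PBS for 8 genes with mOSM, for 9 with hlOSM and for 5 with mLIF, and such a gap below PBS was found for 19.9%, 24.3% and 15.6% of all genes. In bulk cultures, fewer cardiomyocytes and less of these transcripts per cardiomyocyte cannot be told apart. The same PBS libraries serve all 3 comparisons.

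**Figure D1:**
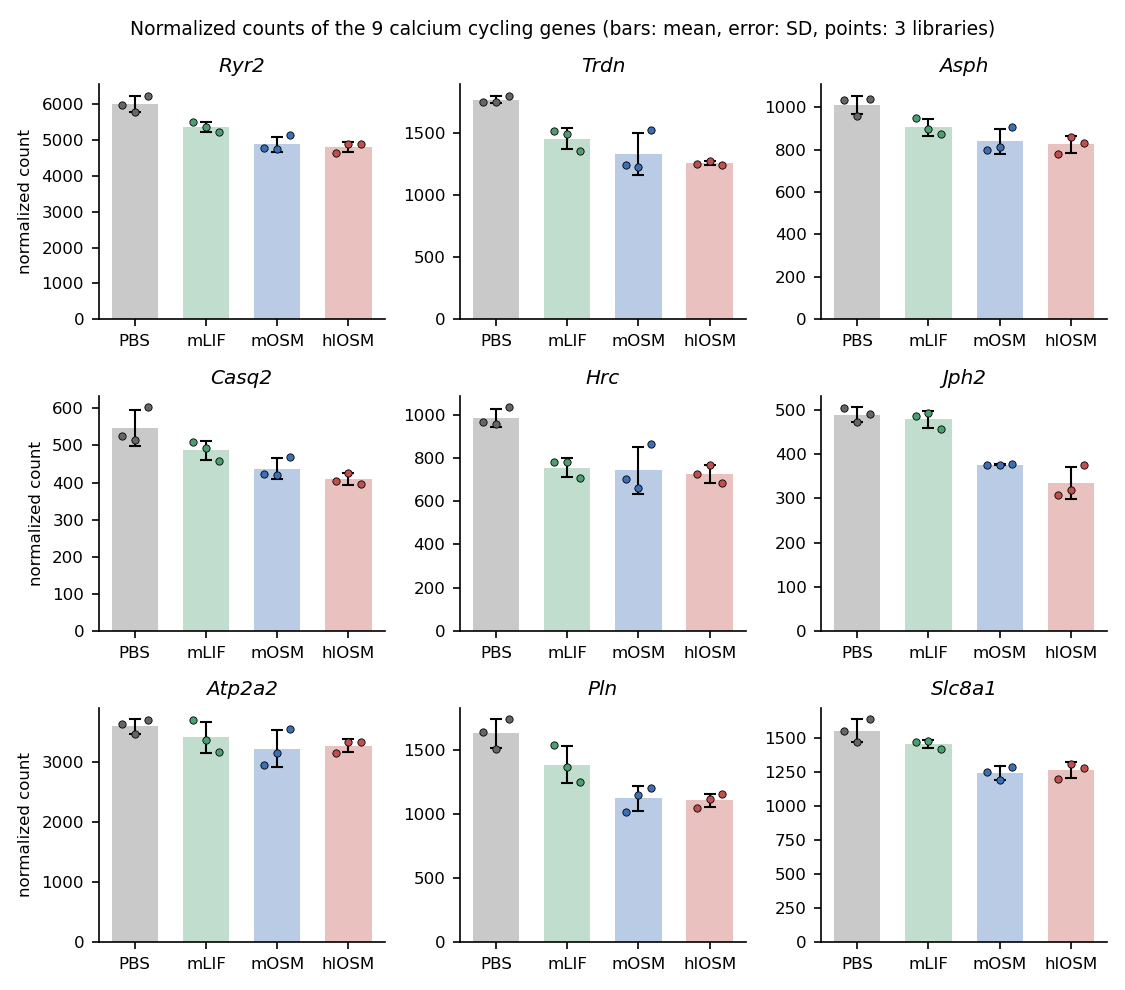
Normalized counts of the 9 genes by condition, with bars for the mean, error bars for the SD and points for the 3 libraries of each condition, each panel starting at 0. On this deposited scale the hlOSM libraries lie below every PBS library for all 9 genes, and the mOSM libraries do so for all but Atp2a2. Relative to cardiomyocyte markers (not drawn), the log2 fold changes of Ryr2, Asph and Atp2a2 lay above 0 with both ligands. Of these only Atp2a2 passed the test, and the median of all genes on that scale was 0.32 with mOSM and 0.34 with hlOSM.

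Ryr2, the release channel itself, lies on chromosome 13 (chr13:11553102-12106945, minus strand, GRCm38). Its normalized counts were 5977, 5777 and 6228 in PBS, 5487, 5359 and 5229 after mLIF, 4779, 4742 and 5122 after mOSM and 4639, 4891 and 4891 after hlOSM. All libraries of all 3 cytokines were below all PBS libraries, and both OSM ligands were below mLIF throughout. The log2 fold change was -0.16 ± 0.05 (SE) with mLIF (adjusted p = 0.0392), -0.30 ± 0.05 with mOSM (adjusted p = 6.74e-05) and -0.32 ± 0.05 with hlOSM (adjusted p = 2.19e-05). Quantile normalization, which sets the values at each rank equal, ended the calls with mLIF (0.00) and mOSM (-0.06). Ryr2 was at rank 4 of the table in PBS, and the cause was not tested.

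Triadin (Trdn, chr10:33080554-33476709, plus strand) and junctin, a product of Asph (chr4:9448069-9669344, minus strand), anchor calsequestrin to the ryanodine receptor. Trdn stood at 1753, 1751 and 1800 in PBS, 1517, 1489 and 1355 after mLIF, 1242, 1229 and 1527 after mOSM and 1252, 1275 and 1246 after hlOSM. Every treated library lay below PBS, although replicate 3 of mOSM reached the level of mLIF. Trdn fell with all 3 cytokines, by 0.28 ± 0.07 on the log2 scale with mLIF (adjusted p = 0.00827), by 0.41 ± 0.07 with mOSM (adjusted p = 3.90e-05) and by 0.49 ± 0.07 with hlOSM (adjusted p = 3.44e-06). Asph was counted at 1032, 959 and 1038 in PBS, 948, 895 and 872 after mLIF, 798, 814 and 907 after mOSM and 781, 861 and 833 after hlOSM. Its mLIF libraries were also all below PBS, but by a margin that missed the threshold (log2 fold change -0.16 ± 0.06, adjusted p = 0.0919), while the OSM ligands lowered it (mOSM -0.27 ± 0.06, adjusted p = 0.00131, and hlOSM -0.29 ± 0.06, adjusted p = 0.000457). The Asph gene also encodes the aspartate beta-hydroxylase and junctate, and its 15 coding transcripts were counted as 1 gene, so the value is not that of junctin alone.

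Junctophilin 2 (Jph2, chr2:163336242-163397993, minus strand), which tethers the T-tubule to the reticulum, separated the ligands most. Its normalized counts were 505, 472 and 492 in PBS, 487, 493 and 457 after mLIF, 375, 375 and 377 after mOSM and 307, 320 and 375 after hlOSM. The mLIF libraries overlapped with PBS (log2 fold change -0.03 ± 0.07, 95% confidence interval -0.17 to 0.11, adjusted p = 0.810), and both OSM ligands lay below all 6 of these libraries. Jph2 fell by 23.2% with mOSM (log2 fold change -0.38 ± 0.07, adjusted p = 0.000129) and by 32.0% with hlOSM (-0.56 ± 0.07, adjusted p = 8.28e-07). Beside it, the paralog Jph1 fell as well, at 326, 305 and 304 in PBS against 238, 252 and 258 with mOSM (log2 fold change -0.32 ± 0.07) and 212, 221 and 246 with hlOSM (-0.46 ± 0.07).

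Of the calcium-binding proteins of the store, calsequestrin 2 (Casq2, chr3:102086415-102146514, plus strand) is the main buffer and the histidine-rich calcium-binding protein (Hrc, chr7:45335290-45338974, plus strand) links store content to release and uptake. Casq2 stood at 525, 514 and 603 in PBS, 510, 492 and 459 after mLIF, 422, 419 and 470 after mOSM and 405, 426 and 395 after hlOSM. The mLIF libraries bordered on PBS without overlap, and only the difference to the OSM ligands passed the test (mOSM -0.32 ± 0.07, adjusted p = 0.000853, hlOSM -0.42 ± 0.07, adjusted p = 4.05e-05, mLIF -0.17 ± 0.07, adjusted p = 0.123). Hrc stood at 966, 954 and 1034 in PBS, 779, 781 and 705 after mLIF, 702, 661 and 865 after mOSM and 725, 769 and 682 after hlOSM. It had the largest log2 fold change of the 9 genes with mLIF, and its treated libraries intermingled regardless of the ligand. The log2 fold change was -0.38 ± 0.08 with mLIF (adjusted p = 0.00273), -0.42 ± 0.08 with mOSM (adjusted p = 0.000209) and -0.44 ± 0.08 with hlOSM (adjusted p = 8.28e-05).

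Uptake rests on SERCA2 (Atp2a2, chr5:122453513-122502225, minus strand) and its inhibitor phospholamban (Pln, chr10:53337667-53345987, plus strand). Atp2a2 stood at 3627, 3458 and 3700 in PBS, 3689, 3373 and 3173 after mLIF, 2948, 3156 and 3550 after mOSM and 3142, 3324 and 3338 after hlOSM. Only the hlOSM libraries were all below PBS, and no cytokine passed the threshold (log2 fold change -0.08 ± 0.06 with mLIF, adjusted p = 0.464, -0.16 ± 0.06 with mOSM, adjusted p = 0.0513, and -0.14 ± 0.06 with hlOSM, adjusted p = 0.0884). The 95% confidence interval with mOSM ran from -0.29 to -0.03. The calls of Atp2a2 lay close to the threshold. Without replicate 3 of mOSM the log2 fold change with mOSM was -0.24 and passed the test (adjusted p = 0.00242), as did that with hlOSM (adjusted p = 0.0294). The mOSM value also passed without replicate 1 or replicate 3 of mLIF or replicate 3 of hlOSM (adjusted p = 0.0424, 0.0498 and 0.0486), and the hlOSM value in a fit of the 6 libraries compared (adjusted p = 0.0147). Quantile normalization turned the sign of Atp2a2, with log2 fold changes of 0.12, 0.09 and 0.16 for mLIF, mOSM and hlOSM, of which that with hlOSM passed the test (adjusted p = 0.0020).

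Pln stood at 1641, 1512 and 1741 in PBS, 1543, 1367 and 1254 after mLIF, 1017, 1154 and 1203 after mOSM and 1049, 1119 and 1155 after hlOSM. One mLIF library reached into the PBS range, whereas the libraries of both OSM ligands were below all PBS and mLIF libraries. Pln fell by 31.1% with mOSM (log2 fold change -0.54 ± 0.07, adjusted p = 4.94e-06) and by 32.0% with hlOSM (-0.56 ± 0.07, adjusted p = 2.32e-06), and by less with mLIF (-0.24 ± 0.07, adjusted p = 0.0406). Of the 9 genes, Pln showed the largest log2 fold change with mOSM and, together with Jph2, with hlOSM. Relative to the cardiomyocyte markers, Pln remained lower than PBS with both OSM ligands (log2 fold change -0.22 with mOSM, adjusted p = 0.00871, and -0.21 with hlOSM, adjusted p = 0.00904), and Trdn with hlOSM (-0.14, adjusted p = 0.0413). Of the merged Pln exons, 64.7% overlap Cep85l and Gm47644 on the opposite strand, and whether the counting used strand is not given in the sources used here. Cep85l itself stood at 444 to 559 normalized counts over the 12 libraries with means of 496, 528, 481 and 498 in PBS, mLIF, mOSM and hlOSM, and passed the test in no comparison. Asph overlaps opposite-strand genes over 14.7% of its exons, Slc8a1 over 1.62% and Atp2a2 over 1.37%, and the other genes over none.

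The ratio of Pln to Atp2a2 in the same library does not depend on the scaling between libraries. It was 0.452, 0.437 and 0.471 in PBS, 0.418, 0.405 and 0.395 after mLIF, 0.345, 0.366 and 0.339 after mOSM and 0.334, 0.337 and 0.346 after hlOSM. The 3 cytokine groups were each below every PBS library, and both OSM groups were below every mLIF library. The means were 0.453 ± 0.0167 (SD, n = 3) in PBS, 0.406 ± 0.0116 with mLIF, 0.350 ± 0.0140 with mOSM and 0.339 ± 0.00637 with hlOSM, which is a log2 difference to PBS of -0.16, -0.37 and -0.42. By an exact two-sided permutation test each comparison with PBS gave p = 0.1 (adjusted p = 0.1 over the 3 comparisons), the smallest p that 3 against 3 libraries allow, so this design cannot reach the 0.05 threshold. Relative to Atp2a2 in the same way, Jph2 moved by a log2 difference of -0.42 with hlOSM, Trdn by -0.35, Hrc by -0.30, Casq2 by -0.28, Ryr2 by -0.18, Slc8a1 by -0.16 and Asph by -0.15.

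**Figure D2:**
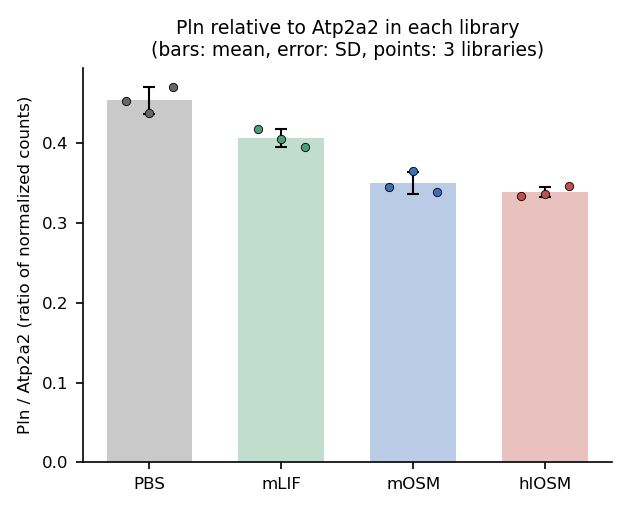
Ratio of the normalized counts of Pln and Atp2a2 by condition, with bars for the mean, error bars for the SD and points for the 3 libraries. The ratio lay between 0.437 and 0.471 in PBS, 0.395 and 0.418 with mLIF and 0.334 and 0.366 with mOSM or hlOSM.

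Slc8a1 (chr17:81373105-81738377, minus strand) encodes NCX1, the exchanger that removes calcium across the plasma membrane. It stood at 1555, 1470 and 1643 in PBS, 1472, 1481 and 1423 after mLIF, 1251, 1190 and 1288 after mOSM and 1201, 1311 and 1282 after hlOSM. The mLIF libraries overlapped with PBS, and the OSM libraries lay below both. The log2 fold change was -0.32 ± 0.05 with mOSM (adjusted p = 6.20e-05), -0.30 ± 0.05 with hlOSM (adjusted p = 0.000118) and -0.09 ± 0.05 with mLIF (adjusted p = 0.286).

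**Figure D3:**
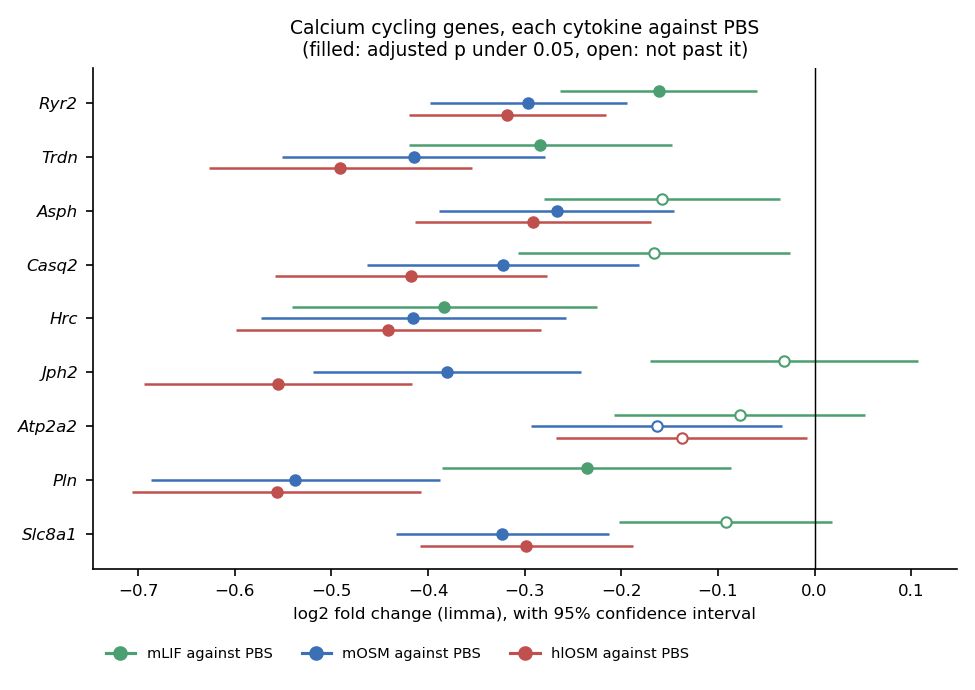
Log2 fold change of each gene with mLIF, mOSM and hlOSM against PBS (points) with 95% confidence intervals (bars), filled where the adjusted p was under 0.05. On the deposited scale the points of mOSM and hlOSM lie between -0.14 and -0.56 and those of mLIF between -0.03 and -0.38. After scaling to cardiomyocyte markers (not drawn) Ryr2, Asph and Atp2a2 lay above 0 with all 3 cytokines, and of these only Atp2a2 passed the test.

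With mLIF, the calls depended on the spread assumed. Ryr2 and Pln passed the threshold narrowly, and with the replicate number as a block their adjusted p was 0.0670 and 0.0575, leaving Trdn and Hrc (2 of 9, against 2.56% of all genes lower). Leaving out 1 library at a time gave 1 to 5 genes, with 1 gene left without replicate 3 of mLIF and 2 without replicate 2 of mLIF or without replicate 1 or replicate 3 of PBS. With mOSM and hlOSM, 8 or 9 genes were called whichever library was left out.

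The direct comparison of the ligands asks whether receptor choice matters for these genes. Against mLIF, mOSM lowered 3 of the 9 genes, Jph2 (log2 fold change -0.35 ± 0.07, adjusted p = 0.000906), Pln (-0.30 ± 0.07, adjusted p = 0.00647) and Slc8a1 (-0.23 ± 0.05, adjusted p = 0.00467), where 5.76% of all genes were lower. Against mLIF, hlOSM lowered these 3 and also Casq2 (-0.25 ± 0.07, adjusted p = 0.0123), Ryr2 (-0.16 ± 0.05, adjusted p = 0.0304) and Trdn (-0.21 ± 0.07, adjusted p = 0.0321), 6 of 9 with 9.22% of all genes lower. Jph2 had the largest of these differences, -0.52 ± 0.07 between hlOSM and mLIF (adjusted p = 6.23e-06). Hrc, Atp2a2 and Asph passed in neither comparison, and for Hrc the log2 difference to mLIF was -0.03 (95% confidence interval -0.19 to 0.13) with mOSM and -0.06 (-0.22 to 0.10) with hlOSM. Relative to the cardiomyocyte markers 1 gene remained called between mOSM and mLIF and 2 between hlOSM and mLIF, all lower, where 292 and 450 of all 13184 genes were lower. One library decided some of these calls, as 5 genes were called between mOSM and mLIF without replicate 3 of mOSM, and 3 between hlOSM and mLIF without replicate 1 of mLIF or replicate 1 of hlOSM.

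Between hlOSM and mOSM, which differ in whether LIFR is engaged in addition to OSMR, limma called none of the 9 genes (0.106% of all genes were called). At an unadjusted p under 0.05, 1 gene stood out, Jph2, with hlOSM below mOSM by a log2 difference of -0.17 (95% confidence interval -0.31 to -0.04, adjusted p = 0.519 by limma), where 7.49% of all genes reached that level. Its highest hlOSM library (375) equalled the lowest mOSM libraries (375), so the groups touched. The intervals of the others bound the difference rather than show equality, from -0.12 to 0.08 for Ryr2, -0.17 to 0.13 for Pln and -0.10 to 0.16 for Atp2a2.

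**Figure D4:**
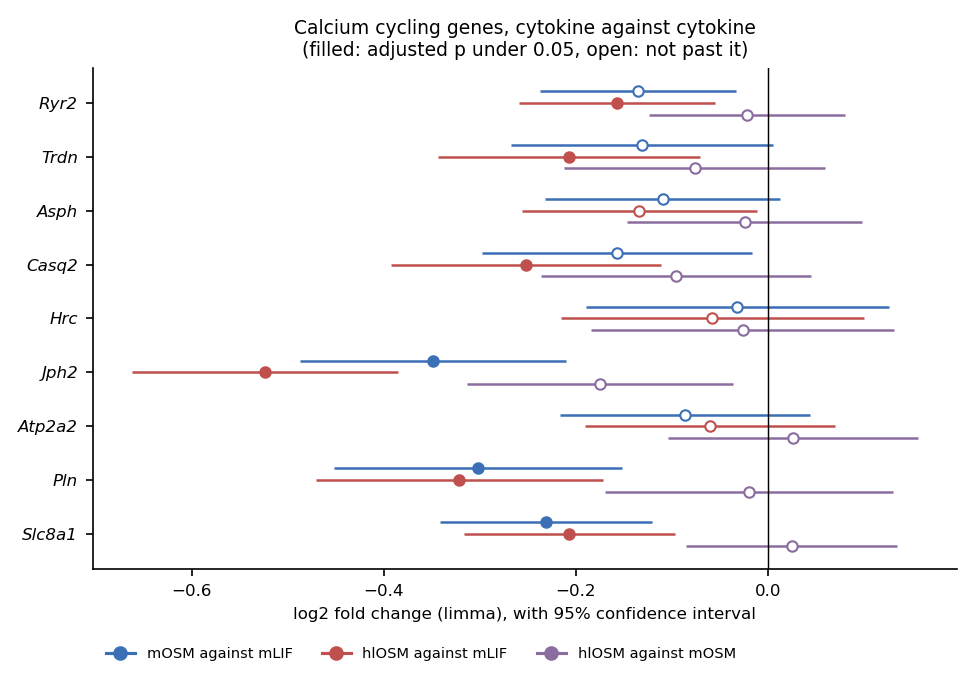
Log2 fold change between ligands (points) with 95% confidence intervals (bars) for the 9 genes, filled where the adjusted p was under 0.05. On the deposited scale Jph2, Pln and Slc8a1 lie clear of 0 for mOSM and hlOSM against mLIF, and all points of hlOSM against mOSM lie between -0.17 and 0.03 without a call, those of Ryr2, Asph and Pln crossing 0 after scaling to cardiomyocyte markers.

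A last contrast asked whether adding LIFR to OSMR (hlOSM against mOSM) had another effect than engaging LIFR alone (mLIF against PBS). None of the 9 genes passed it by limma (0.167% of all genes did), and 3 had an unadjusted p under 0.05 (11.5% of all genes did): Hrc (0.36 ± 0.11, adjusted p = 0.179), Trdn (0.21 ± 0.09, adjusted p = 0.39) and Pln (0.22 ± 0.10, adjusted p = 0.423). Without replicate 3 of mOSM 1 gene was called in this contrast.

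By their profile over the 12 libraries, measured as the root mean square difference of log2 values centred on each gene's mean and compared with 8669 other genes, the nearest pair among the 9 was Ryr2 and Asph (0.031) and the farthest Hrc and Jph2 (0.214). The 3 nearest genes to Ryr2 were Fyco1, Ttc3 and Akap6, and those to Asph were Lpl, Ryr2 and Etfdh. Trdn lay nearest to Mybpc3, Fnip1 and Sparc, Casq2 to Tmem126b, Unc45b and Pygb, and Hrc to Myh6, Cep63 and Tsc22d4. Jph2 lay nearest to Fam171a1, Asb14 and Lrrc14b, Pln to Tnnt2 and Mbnl1, Slc8a1 to Rev1, Ttc3 and Ryr2, and Atp2a2 to Rcan2, Acadl and Sqstm1. Sarcomere genes stood nearest to Trdn (Mybpc3, myosin-binding protein C), Hrc (Myh6, alpha myosin heavy chain) and Pln (Tnnt2, cardiac troponin T), all points sharing the same 12 libraries.

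Of 75 further calcium-handling genes in 5 lists, 64 were tested, and 20 were lower and 10 higher with mOSM, 20 lower and 12 higher with hlOSM and 11 lower and 2 higher with mLIF, with medians of -0.05, -0.06 and -0.05 on the log2 scale. Over all genes tested, 15.4% were higher with mOSM, 18.2% with hlOSM and 5.47% with mLIF, and 15.8%, 19.8% and 4.44% were lower. The further genes called lay in both directions on the deposited scale. Relative to the cardiomyocyte markers, 4 were lower and 34 higher with mOSM, 6 lower and 36 higher with hlOSM and 0 lower and 22 higher with mLIF. On that scale 6926 of all 13184 genes were higher and 533 lower with mOSM, 7290 and 723 with hlOSM and 4024 and 87 with mLIF. Higher calls there are thus not particular to these lists. The 11 genes not tested included Ryr1, Fkbp1b, Atp2a1, Atp2a3 and Sln.

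Among 18 tested genes of the release unit, 8 were lower and 4 higher with hlOSM, where 19.8% of all genes were lower and 18.2% higher. Sarcalumenin (Srl), a luminal calcium-binding glycoprotein, fell from 1219, 1153 and 1248 in PBS to 786, 810 and 841 with hlOSM (log2 fold change -0.57 ± 0.05, adjusted p = 2.69e-08), with 897, 898 and 981 with mOSM (-0.38 ± 0.05) and 1015, 1027 and 951 with mLIF (-0.27 ± 0.05, adjusted p = 0.00267). Speg, a kinase of the junctional membrane, fell from 1050, 1015 and 1026 to 763, 786 and 792 with hlOSM (-0.40 ± 0.05, adjusted p = 3.25e-06). Sorcin (Sri), a calcium-binding protein that acts on the ryanodine receptor, went the other way, from 156, 157 and 132 in PBS to 201, 188 and 195 with mLIF (0.39 ± 0.08, adjusted p = 0.00495), 229, 241 and 267 with mOSM (0.73 ± 0.08, adjusted p = 6.87e-07) and 254, 254 and 297 with hlOSM (0.85 ± 0.08, adjusted p = 5.10e-08). The treated libraries of Sri were all above PBS and those of Srl all below.

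Around the pump, 5 of 13 tested genes were lower and 1 was higher with hlOSM (19.8% and 18.2% of all genes). The phosphodiesterases Pde3a and Pde4d, which break down cAMP near phospholamban, both fell with each cytokine. Pde3a stood at 520, 531 and 582 in PBS and 382, 382 and 333 with hlOSM (-0.57 ± 0.07, adjusted p = 1.07e-06), and Pde4d at 229, 264 and 295 in PBS and 170, 158 and 155 with hlOSM (-0.70 ± 0.09, adjusted p = 1.75e-06). Smaller decreases with hlOSM were found for Prkaca, the catalytic subunit of protein kinase A that phosphorylates phospholamban (-0.23 ± 0.07, adjusted p = 0.00936), and Ppp1cb, a catalytic subunit of the phosphatase that reverses it (-0.16 ± 0.05, adjusted p = 0.0209).

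In the list of plasma membrane calcium and sodium transport, 1 of 11 tested genes was lower and 1 higher with hlOSM (19.8% and 18.2% of all genes). The lower one was Stim1, which encodes a sensor of store content. It stood at 108, 128 and 130 in PBS and 69, 71 and 58 with hlOSM (-0.88 ± 0.12, adjusted p = 3.58e-06). Of 13 genes of T-tubule and dyad structure, 4 were lower and 5 higher with hlOSM (19.8% and 18.2% of all genes). Lrrc10, a cardiac leucine-rich repeat protein, showed the largest of these changes, with 223, 204 and 272 normalized counts in PBS, 173, 174 and 151 after mLIF, 96, 102 and 95 after mOSM and 63, 64 and 67 after hlOSM. Its groups followed each other without overlap (hlOSM against PBS -1.82 ± 0.10, adjusted p = 3.54e-12), and among the 64 tested genes it was the 1 called between hlOSM and mOSM (-0.59 ± 0.10, adjusted p = 0.0189), a call that ended with the replicate block (adjusted p = 0.0663). The Z-disc protein Tcap fell by 0.93 ± 0.09 on the log2 scale (adjusted p = 6.70e-08) and the anchoring protein Ank2 by 0.42 ± 0.06 (adjusted p = 2.41e-06) with hlOSM, while Dysf, encoding the membrane repair protein dysferlin, rose (0.28 ± 0.05, adjusted p = 0.000265).

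Of 9 genes of mitochondrial calcium exchange, Micu2, a gatekeeper of the uniporter, fell from 464, 463 and 465 in PBS to 400, 409 and 384 with hlOSM (-0.22 ± 0.06, adjusted p = 0.00828), Letm1 fell (-0.22 ± 0.07, adjusted p = 0.0225) and Mcu, the pore of the uniporter, rose from 153, 162 and 162 to 187, 175 and 218 (0.27 ± 0.09, adjusted p = 0.0193). The remaining 6 did not pass the test with hlOSM, with which 19.8% of all genes were lower and 18.2% higher.

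**Figure D5:**
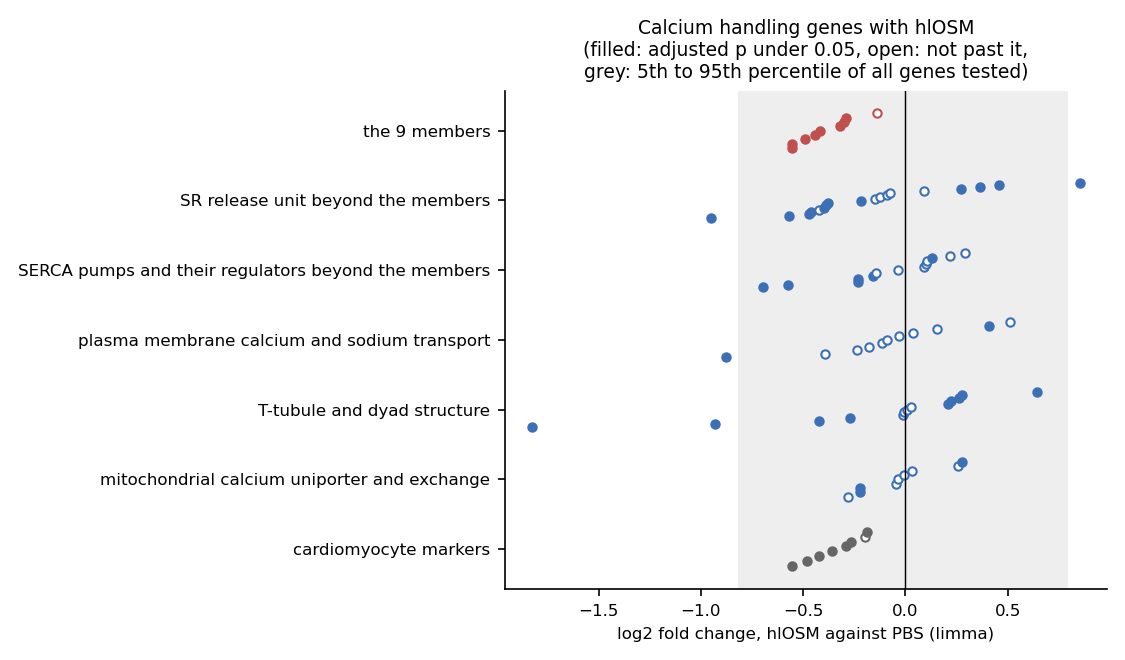
Log2 fold change with hlOSM against PBS for the 9 genes, the 5 lists of further calcium-handling genes and the 8 cardiomyocyte markers (1 point per tested gene, filled where the adjusted p was under 0.05), with the 5th to 95th percentile of all genes (-0.81 to 0.79) in grey. On the deposited scale all 9 genes lie between -0.56 and -0.14 beside the cardiomyocyte markers, and the further genes spread to both sides of 0. Ryr2, Asph, Slc8a1 and Atp2a2 crossed 0 after scaling to those markers (not drawn), and of these only Atp2a2 passed the test.

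The decrease of the 9 genes ran beside that of the sarcomere markers. Of the 8 cardiomyocyte markers, 7 were lower with mOSM, 7 with hlOSM and 5 with mLIF, with medians of -0.30, -0.33 and -0.26 on the log2 scale, including Tnnt2 (-0.49, -0.56 and -0.29) and Myh6 (-0.35, -0.36 and -0.30). Over all genes tested, 15.8%, 19.8% and 4.44% were lower in the same order. The summed endothelial markers stood at 1045 to 1086 normalized counts in PBS, 1283 to 1445 with mOSM and 1265 to 1394 with hlOSM, and the leukocyte markers at 300 to 316 in PBS, 339 to 386 with mOSM and 315 to 387 with hlOSM. The leukocyte sum moved with Cd68 (means of 53.7 in PBS, 125 with mOSM and 132 with hlOSM), the 1 of 5 tested leukocyte markers that was higher, and Lyz2 was lower with hlOSM. Of all genes, 15.4% were higher with mOSM and 18.2% with hlOSM. The smooth muscle and pericyte markers stood at 846 to 1046 in PBS and 578 to 598 with hlOSM, and the fibroblast markers at 1878 to 2141 and 1588 to 1651. Of the 7 fibroblast markers, 5 were lower with hlOSM and 2, Dcn (means of 222 in PBS and 441 with hlOSM) and Lum, were higher, where 19.8% of all genes were lower and 18.2% higher. The deposited values include no gene at 0 in all libraries, and the skeletal muscle markers Myh1 and Myh4 were absent from them. The part of cell composition in the results was not tested.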

How the data were processed

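RNA was sequenced from 12 libraries of cultured cardiomyocytes. Per the labels and the study's methods, the authors aligned reads with STAR (2.7.7a), counted them per gene with featureCounts of Subread (1.6.5) on Ensembl release 101, and then normalized and rounded the values before they were deposited (treated here as a score, not as raw counts). The normalization method is not given in the sources used here, and the depth is given only as an average over the libraries. Samples were grouped by their labels. Genes with at least 10 normalized counts in at least 3 libraries (13184, all 9 members included) were compared on log2(value + 1) with limma 3.58.1 (R 4.3.3, trended variance, all 12 libraries, two-sided, Benjamini-Hochberg over all genes). A fold change on this scale understates that of low genes. Intervals are 95% confidence intervals. The members and lists were chosen with earlier results of these data known. Named further genes were, per list, up to 4 called with hlOSM against PBS with the smallest adjusted p and a mean of at least 50, any called between hlOSM and mOSM or in the last contrast, and the 3 nearest profiles per member (1 of these is not reported here). Coordinates and exon overlaps came from GENCODE M21 (GRCm38), where 22876 of the 22915 identifiers were found. The fit was tested on simulated data. Alternatives covered pseudocount, filter, scaling, variance model, block and leaving out libraries.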

Additional observations from a re-analysis of the deposited data

How the results depend on the processing

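With mLIF against PBS, the 4 genes called became 2 without a filter on low values, under quantile normalization, at an adjusted p under 0.01 and with the replicate block, and 0 without the mean-variance trend. Between hlOSM and mLIF, the 6 became 1 without that trend and 3 at 0.01. Leaving out 1 library at a time, the number called ranged from 1 to 5 for mLIF, 2 to 5 for mOSM against mLIF, 3 to 6 for hlOSM against mLIF and 0 to 1 for the last contrast.

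Quantile normalization gave Atp2a2 log2 fold changes of 0.12 (mLIF), 0.089 (mOSM) and 0.16 (hlOSM) against PBS and 0.047 for hlOSM against mLIF, and turned the last contrast for Ryr2 (-0.12) and Atp2a2 (-0.043). The cause was not tested.

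Scaling each library to its 8 cardiomyocyte markers was chosen after seeing the data. It moved the median of all genes by 0.24 with mLIF, 0.32 with mOSM and 0.34 with hlOSM, against which the members' values are to be read. Under it 1 member was called with mLIF (Atp2a2, higher), 2 with mOSM (Pln lower, Atp2a2 higher), 3 with hlOSM (Pln and Trdn lower, Atp2a2 higher), 1 for mOSM against mLIF and 2 for hlOSM against mLIF (all lower). With mLIF the log2 fold change became 0.074 for Ryr2, 0.077 for Asph, 0.069 for Casq2, 0.20 for Jph2, 0.16 for Atp2a2 and 0.14 for Slc8a1. With mOSM it became 0.025 for Ryr2, 0.055 for Asph and 0.16 for Atp2a2, and for hlOSM 0.028 for Ryr2, 0.055 for Asph, 0.21 for Atp2a2 and 0.048 for Slc8a1. Against mLIF, Hrc turned to 0.055 with mOSM and 0.053 with hlOSM, and Atp2a2 to 0.00067 and 0.051. Between hlOSM and mOSM, Ryr2 turned to 0.0029, Asph to 0.00026 and Pln to 0.0050. The last contrast became -0.071 for Ryr2, -0.0030 for Trdn, -0.077 for Asph, -0.14 for Casq2, -0.11 for Atp2a2 and -0.094 for Slc8a1.

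Single libraries also turned small differences. Between hlOSM and mOSM the range without 1 library was -0.042 to 0.014 for Ryr2, -0.13 to 0.026 for Trdn, -0.060 to 0.032 for Asph, -0.11 to 0.089 for Hrc, -0.035 to 0.099 for Atp2a2, -0.090 to 0.031 for Pln and -0.0063 to 0.061 for Slc8a1. It was -0.15 to 0.047 for Hrc between mOSM and mLIF, -0.058 to 0.0015 for Jph2 between mLIF and PBS, and -0.00088 to 0.12 for Casq2 in the last contrast.

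For the further genes, the counts became 5 (mLIF), 2 (mOSM against mLIF), 11 (hlOSM against mLIF) and 0 (hlOSM against mOSM) without the trend. At 0.01 they were 6 (mLIF), 19 (mOSM), 3 (mOSM against mLIF) and 0 (hlOSM against mOSM). With marker scaling they were 22 (mLIF, all higher), 38 (mOSM, 34 higher), 42 (hlOSM, 36 higher), 4 (mOSM against mLIF, 3 higher), 10 (hlOSM against mLIF, 6 higher) and 0 (hlOSM against mOSM). The same scaling called 4024, 6926 and 7290 of all 13184 genes higher with mLIF, mOSM and hlOSM, and 752 and 1135 for mOSM and hlOSM against mLIF. Lower were 87, 533, 723, 292 and 450 genes in the same order. Between hlOSM and mOSM 2 were called under quantile normalization, 0 with the 6 libraries compared and 0 with the replicate block. Leaving out 1 library gave 6 to 16 for mLIF, 4 to 8 for mOSM against mLIF and 0 to 1 for hlOSM against mOSM.

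Libraries that share a replicate number tended to deviate in opposite directions (median r = -0.33 over 18 pairs of libraries, from -0.52 to 0.02, against 0.17 for other pairs). The numbers thus carry structure, but these values cannot show whether they pair the libraries, since removing such an effect would hide a pairing. The main fit left the replicate number out. Whether an effect of the replicate number was removed before deposit is not given in the sources used here. The standard errors and p-values of the main fit assume that none was, and would be too small if one was. The replicate block ended the calls of Ryr2 and Pln with mLIF and changed no other call of the 9 genes. The Pln to Atp2a2 ratio kept its direction in all alternatives tried, also with the replicate block (log2 differences of -0.16, -0.37 and -0.42, exact p = 0.25 with the block, the smallest it allows).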
